A study of Mus musculus with 18 samples.

Results

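Foxa2 binding was mapped by ChIP-Seq in livers of Zmpste24 mutants and of wild-type littermates, and the sites called in each genotype were compared by width, spacing, chromosome, position relative to genes and closest gene. All Foxa2 sites on chromosomes 1 to 19 were taken, which gave 4912 of 4960 wild-type sites and 8051 of 8177 mutant sites, together 12963 of the 21560 regions in the lists of the series. Both groups were male C57BL/6 mice aged 12 weeks, with 3 samples per genotype. The wild-type group (Foxa2 WT) carried intact Zmpste24 and the mutant group (Foxa2 Zmpste24 KO) was null for it, with no further allele and no treatment named for either. The labels name wild-type mice as the source of chromatin for every sample of the series, the mutant samples included, and the genotype was taken from the sample titles. No site lay in or closest to Zmpste24 in either list, and positions alone do not show whether the gene is deleted. Reads of the 3 replicates were merged before sites were called against input from wild-type livers, so each genotype is represented by 1 list, and no difference below can be set against the spread between mice. The lists give positions without heights or scores, so the read depth behind a site is unknown. Intervals of shares are 95% Wilson intervals, those of differences between shares use the normal approximation and those of medians come from ranks. All cover counting error only, and neighbouring sites are not independent.

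Foxa2 is a winged-helix (forkhead) transcription factor that can bind its sites in compacted chromatin and is therefore called a pioneer factor. In hepatocytes it acts with other liver-enriched factors at enhancers of genes for plasma proteins, glucose, lipid and bile acid metabolism. Zmpste24 is the protease that matures prelamin A to lamin A, and mice without it develop a progeroid disease of the nuclear lamina, the meshwork under the nuclear envelope to which silent chromatin is attached. In whole liver, fewer cells of a type and less binding per cell cannot be told apart.

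Sites called in both genotypes carried the forkhead core at their middle far more often than sites called in only one. A site was called shared if any base of it lay in a site of the other list, which held for 1339 wild-type sites (27.3%, interval 26.0 to 28.5%) and 1353 mutant sites (16.8%, 16.0 to 17.6%), and left 3573 sites in wild type only and 6698 in the mutant only. Examples of sites with a core are shown as 100 bp of GRCm38.p6 sequence (the assembly behind mm10), to let the reader see the element in each class. The name is that of the protein-coding gene with the closest start site, and capitals mark the forkhead core TGTTTAC.
Foxa2, both lists, chr2:148040440-148040539, plus strand: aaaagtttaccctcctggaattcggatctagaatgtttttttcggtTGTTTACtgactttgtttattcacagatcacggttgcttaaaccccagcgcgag
Trf, both lists, chr9:103234639-103234738, plus strand: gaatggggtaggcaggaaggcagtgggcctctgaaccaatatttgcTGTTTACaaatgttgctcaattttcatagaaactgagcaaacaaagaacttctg
Abcg5, both lists, chr17:84689525-84689624, plus strand: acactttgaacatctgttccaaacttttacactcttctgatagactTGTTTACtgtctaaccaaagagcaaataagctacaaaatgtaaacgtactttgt
Cyp7a1, both lists, chr4:6239182-6239281, minus strand: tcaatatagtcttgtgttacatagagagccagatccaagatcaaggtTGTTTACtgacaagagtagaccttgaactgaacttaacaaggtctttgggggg
Ncor1, wild type only, chr11:62488057-62488156, plus strand: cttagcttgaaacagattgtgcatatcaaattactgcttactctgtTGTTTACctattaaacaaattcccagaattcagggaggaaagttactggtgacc
Slc10a1, wild type only, chr12:80976184-80976283, minus strand: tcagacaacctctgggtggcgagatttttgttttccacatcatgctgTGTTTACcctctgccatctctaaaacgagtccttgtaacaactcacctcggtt
Ppara, wild type only, chr15:85747427-85747526, plus strand: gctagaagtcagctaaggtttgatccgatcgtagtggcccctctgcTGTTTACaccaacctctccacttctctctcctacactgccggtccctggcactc
Ncor1, mutant only, chr11:62495321-62495420, plus strand: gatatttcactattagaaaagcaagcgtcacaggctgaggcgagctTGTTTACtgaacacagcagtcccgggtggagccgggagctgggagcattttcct
Prox1, mutant only, chr1:190174118-190174217, minus strand: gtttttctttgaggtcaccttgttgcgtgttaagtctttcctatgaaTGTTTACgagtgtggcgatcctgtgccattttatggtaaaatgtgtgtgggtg
Tat, mutant only, chr8:109993056-109993155, plus strand: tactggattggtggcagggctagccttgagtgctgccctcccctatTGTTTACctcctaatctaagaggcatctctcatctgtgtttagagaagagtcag
The first 4 lie in sites of both lists, closest to Foxa2 itself, the iron carrier transferrin (Trf), the sterol transporter Abcg5 and Cyp7a1, the rate-limiting enzyme of bile acid synthesis. The next 3 were called in wild type only, closest to the co-repressor Ncor1, the bile acid importer Slc10a1 and the fatty acid sensor Ppara. The last 3 were called in the mutant only, closest to Ncor1, the hepatocyte regulator Prox1 and the tyrosine catabolic enzyme Tat. Ncor1 thus had a core at 1 site in each genotype, at different places.

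The core TGTTTAC, read on both strands, was present in the 500 bp around the midpoint (called the middle below, which reaches past the edges of narrower sites) of 34.9% of shared wild-type sites (32.4 to 37.5%) and 36.2% of shared mutant sites (33.7 to 38.8%). It was present in 13.7% of the sites called in wild type only (12.6 to 14.9%) and 12.0% of those called in the mutant only (11.3 to 12.8%). Windows of the same width 5 kb downstream had it in 6.80%, 7.17%, 6.72% and 7.02% of cases in the same order, and 4.22% of the 500 bp stretches around the start sites of all 20807 protein-coding genes had it. The shares of the genotype-only classes therefore lay above those of their windows and far below those of the shared sites. The excess was centred on the site. In the 100 bp just before the middle, 12.1% of shared wild-type, 12.8% of shared mutant, 3.89% of wild-type-only and 2.63% of mutant-only sites had a core, and in the outermost 100 bp, at 950 bp, the shares were 1.87%, 1.03%, 1.48% and 1.93%.

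**Figure D1:**
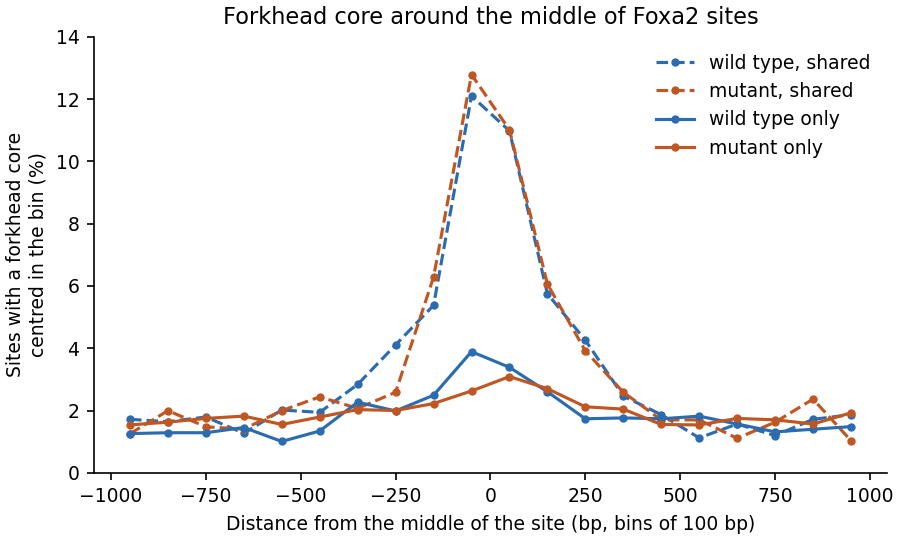
Share of sites (%) with a forkhead core centred in each 100 bp bin, by distance from the middle of the site (bp), for the 4 classes of sites. Shared sites (dashed) peak at 12.1% in wild type and 12.8% in the mutant just before the middle, whereas sites called in 1 genotype only (solid) stay at or below 3.89% in every bin.

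The classes also differed in cores of other factors. CAAAGTCCA, a core of the element of the hepatocyte factor HNF4 (0.788% of all promoter stretches), was in the middle 500 bp of 2.76% of shared wild-type sites and 2.96% of shared mutant sites, against 1.37% and 1.00% of the wild-type-only and mutant-only sites. The windows ranged from 0.588 to 0.961%. The ETS core CCGGAAG, frequent at promoters (14.8% of all promoter stretches), was in 5.30%, 4.36%, 3.30% and 1.90% of shared wild-type, shared mutant, wild-type-only and mutant-only sites, so the mutant-only class had the lowest share (1.60 to 2.25%) and came close to its windows (1.58%). The GATA core AGATAA (14.25% of promoter stretches) was in 25.8% of wild-type-only sites (windows 27.1%) and 31.1% of mutant-only sites (windows 29.9%). The C/EBP palindrome TTGCGCAA (0.279% of promoter stretches) occurred in the middle of no more than 5 sites of any class. A match of letters describes the sequence only.

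Base composition differed between the genotype-only classes. The median GC content was 45.7% in wild-type-only and 42.2% in mutant-only sites, with 43.6% and 42.2% in their windows, and 46.1% and 45.96% in the shared sites of the 2 lists. Repeats covered more than 50% of 7.11% of wild-type-only, 8.76% of mutant-only, 4.78% of shared wild-type and 4.88% of shared mutant sites, against 16.9 to 19.4% of windows.

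Mutant sites were slightly narrower than wild-type sites, and in both genotypes the shared sites were the narrowest. The median width was 940 bp in wild type (interval of the median 925 to 966) and 883 bp in the mutant (872 to 895). The middle 50% of sites spanned 648 to 1203 bp in wild type and 647 to 1144 bp in the mutant, so the distributions largely coincided. Shared sites had medians of 681 bp (658 to 709) in wild type and 623 bp (600 to 644) in the mutant, while wild-type-only and mutant-only sites had 1024 bp (1013 to 1036) and 931 bp (918 to 944). Over the 1339 overlapping pairs, the wild-type site was the wider in 749, the mutant site in 588, and in 2 the widths were equal. The midpoints of a pair lay 137 bp apart in the median.

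**Figure D2:**
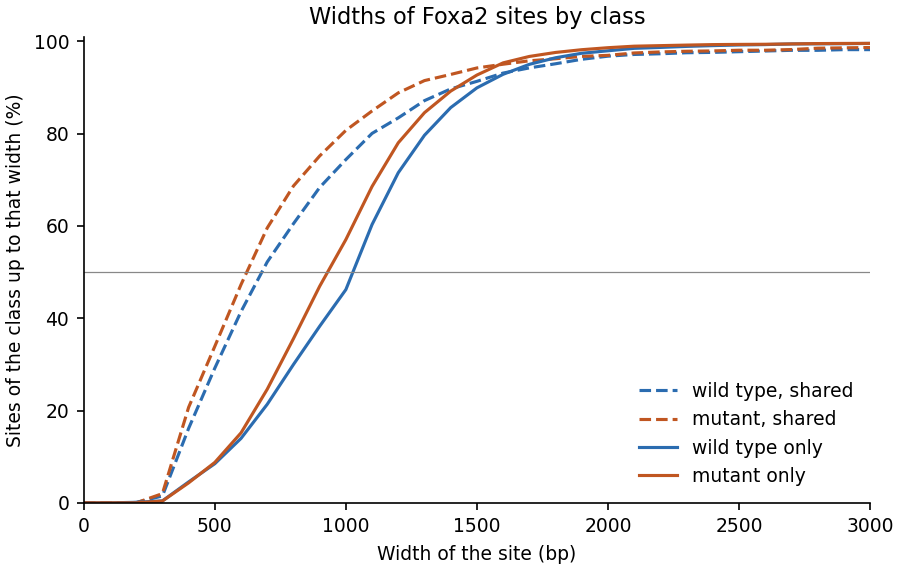
Cumulative share of sites (%) by width (bp) for shared and genotype-only sites of each list, with the grey line at 50%. The shared curves (dashed, medians 681 and 623 bp) lie to the left of the genotype-only curves (solid, medians 1024 and 931 bp).

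Narrow sites had an overlap, and a core in their middle, more often than wide sites. When each list was divided into 5 groups of equal size by width, 53.7% of the narrowest wild-type sites (50.5 to 56.8%) and 39.0% of the narrowest mutant sites (36.7 to 41.4%) were shared, against 18.7% and 9.31% of the widest. The lowest shares, 12.2% and 7.33%, were those of the second widest group. The core was in the middle 500 bp of 35.9% of the narrowest wild-type sites and 29.3% of the narrowest mutant sites, and fell to 11.2% and 7.76% in the widest, where the windows had 6.51% and 6.70%. The widest mutant sites were thus close to their windows.

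The widest sites fell on a few loci. In wild type they were a site of 33618 bp on chromosome 1 from 88236598 to 88270215, closest to Hjurp, a histone chaperone of centromeres; a site of 17459 bp on chromosome 14 from 41103740 to 41121198 in an intron, closest to Mat1a, which makes S-adenosylmethionine in liver; and a site of 13478 bp on chromosome 1 closest to the bilirubin-conjugating enzyme Ugt1a1. In the mutant they were a site of 16070 bp on chromosome 11 from 3184133 to 3200202, closest to Sfi1, a site of 13292 bp closest to Ugt1a1 and a site of 7260 bp closest to the ion channel gene Trpm8. The Ugt1a1 sites of the 2 lists overlapped, and those closest to Mat1a and Sfi1 had no counterpart in the other list. The 3 narrowest wild-type sites were each 150 bp wide and closest to Inhbb, Zfp619 and the clock gene Arntl, 43 bp from the start site of the latter. The narrowest mutant sites measured 213, 220 and 230 bp and were closest to Zbtb20, Il12a and Gramd3. Of these 6 only the one closest to Il12a was shared.

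Sites lay closer together than an even random spread would place them, in both lists, and this was more pronounced in wild type. Another site of the same list lay within 10 kb of 737 wild-type sites (15.0%, 14.03 to 16.03%) and 1051 mutant sites (13.1%, 12.3 to 13.8%). Because the mutant list is longer, the median gap was also divided by the mean gap, a ratio of 0.693 for sites spread evenly at random whatever their number. It was 0.447 in wild type (median gap 216 kb, mean 483 kb) and 0.578 in the mutant (171 and 296 kb). Chains with gaps of up to 10 kb numbered 327 in wild type and 475 in the mutant, most of them pairs (281 and 414). Clustered sites were more often shared than single ones, 39.8% (36.3 to 43.3%) against 25.1% in wild type and 32.4% (29.7 to 35.3%) against 14.5% in the mutant. The core was in 22.0% of clustered and 19.04% of single wild-type sites, intervals that overlapped, and in 20.7% and 15.4% of mutant sites, intervals that did not.

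The longest chains were the same loci in both lists. On chromosome 9 from 3000000 to 3038401, next to the end of the assembled sequence, 13 wild-type and 13 mutant sites were chained. Repeats made up 95.5% of the wild-type and 95.3% of the mutant bases of these sites, the genes there are predicted genes such as Gm10722 and Gm10715, and none of the sites held the core. On chromosome 1 from 88211375 to 88310680, across the Ugt1a cluster of glucuronosyltransferases, Mroh2a, Hjurp and Trpm8, the wild-type list had 7 sites covering 92.1 kb and the mutant list 15 sites covering 72.1 kb. All 7 and all 15 overlapped a site of the other list, so that about the same stretch was divided into more sites in the mutant. The next chains had 6 sites each, on chromosome 4 from 3049983 to 3069980 in wild type, closest to Vmn1r2, and on chromosome 16 from 3241087 to 3272786 in the mutant, closest to Olfr161. Here 3 and 2 sites were shared. Both genes belong to chemosensory receptor families. Other wild-type chains of 6 sites lay at Zfp981 (2 shared), Atg7 (0 shared) and Hmgcs1 (1 shared).

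Some stretches held called sites of 1 list only, although a site that was not called may still be bound. Such rows arise whenever lists are interleaved, more so for the longer list, and the number expected was not computed. Sorted along the chromosomes, the longest row of wild-type sites that no mutant site interrupted held 12 sites on chromosome 17 from 53972820 to 56000464, closest to Sult1c1 and Stap2. The second held 9 sites within 100 kb on chromosome 8 from 124972224 to 125072665, closest to Egln1, Tsnax and Disc1. Of wild-type rows, 42 held 5 or more sites and 1 held 10 or more. The mutant list, with more sites, had 371 and 53 such rows. Its longest held 23 sites over 8380 kb on chromosome 13 from 82419117 to 90799450, past Mef2c, Rasa1, Edil3, Hapln1 and Vcan. It was followed by 19 sites over 6624 kb at the end of chromosome 12, from Adam6b to Tmem196, and 18 sites over 5565 kb on chromosome 19 from 47464336 to 53029823 around the neuronal sorting receptors Sorcs3 and Sorcs1. These 3 mutant rows had 2.74, 2.87 and 3.23 sites per Mb and held the core in the middle of 3, 2 and 3 sites. The longest wild-type row, at Sult1c1 and Stap2, had 5.92 sites per Mb over 2028 kb and the core in the middle of 0 sites. Its sites were not evenly spread. All wild-type sites closest to Sult1c1 lay between 53957578 and 54105527, within 148 kb, and the rest of the span reached to Stap2. The shorter row at Egln1, Tsnax and Disc1 had 89.6 sites per Mb and the core in the middle of 2 sites, neither of them closest to Disc1. These rows were chosen after the values were seen.

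The mutant list exceeded the wild-type list on each of the 19 chromosomes, by a factor that differed between them. Over chromosomes 1 to 19 there were 1.64 mutant sites per wild-type site. Chromosome 2 stood lowest, with 314 wild-type and 329 mutant sites, so that 51.2% of its sites were mutant (47.3 to 55.0%). On chromosome 11 the numbers were 272 and 333 (55.0%, 51.1 to 59.0%), and on chromosome 9 they were 268 and 332 (55.3%, 51.3 to 59.3%). Chromosome 14 stood highest with 119 and 282 (70.3%, 65.7 to 74.6%), followed by chromosome 1 with 375 and 735 (66.2%, 63.4 to 68.9%). The intervals of chromosomes 2, 9 and 11 did not reach those of chromosomes 1 and 14, and most of the other chromosomes could not be separated from one another.

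Per length, wild-type density ran from 0.953 sites per Mb on chromosome 14 to 2.48 on chromosome 10, and mutant density from 1.81 on chromosome 2 to 4.59 on chromosome 19. Across the 19 chromosomes the densities of the lists went together (Pearson r = 0.79, Spearman rho = 0.78, a description over chromosomes that share libraries). The ratio of mutant to wild-type sites went the other way from GC content (r = -0.51, rho = -0.50) and from the number of protein-coding genes per Mb (r = -0.43, rho = -0.53), and with 19 chromosomes these are descriptions only. The share of wild-type sites that overlapped a mutant site was highest on chromosome 14 (37.8%) and lowest on chromosome 3 (22.5%). For mutant sites it was highest on chromosomes 2 (23.7%) and 11 (23.4%) and lowest on chromosome 6 (12.7%).

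**Figure D3:**
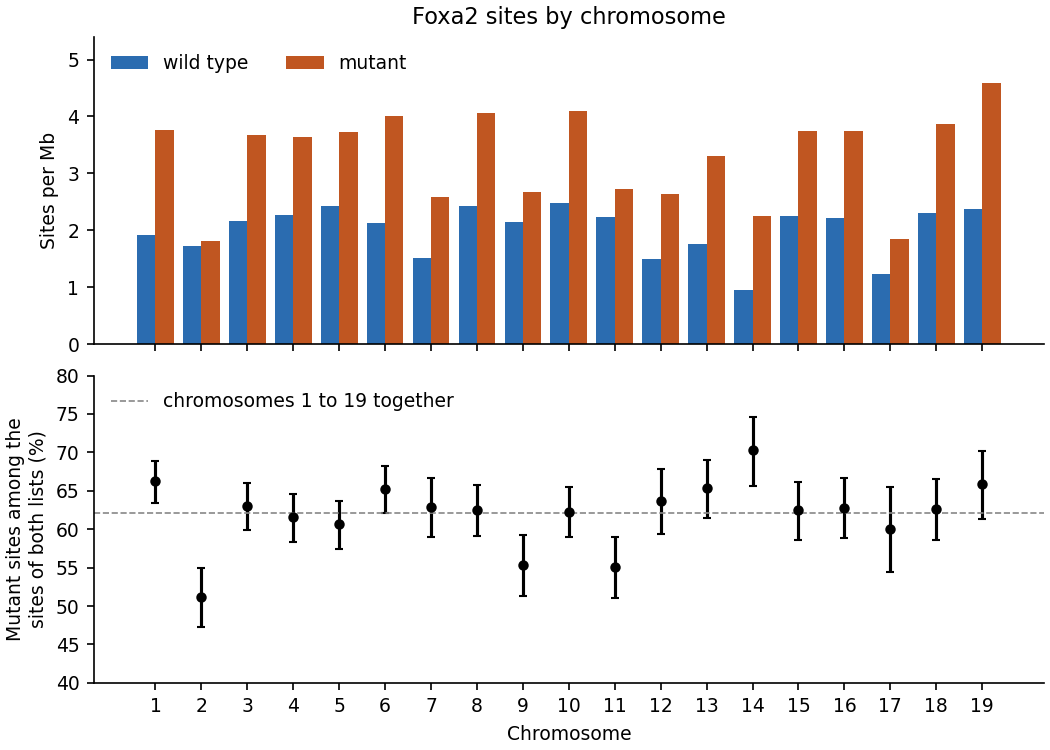
Top, sites per Mb of each chromosome in wild type (blue) and mutant (orange). Bottom, share of mutant sites among the sites of both lists (%) with 95% Wilson intervals, where the dashed line marks chromosomes 1 to 19 together, and chromosomes 2, 9 and 11 lie below it (51.2%, 55.3% and 55.0%) while chromosome 14 lies above (70.3%).

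Wild-type sites were at promoters more often than mutant sites, and mutant sites were more often intergenic. Position was that of the midpoint, with promoters set from 1000 bp before to 100 bp after the start site of a protein-coding gene. In wild type 344 sites (7.003%, 6.32 to 7.75%) were at promoters and in the mutant 258 (3.20%, 2.84 to 3.61%), a difference of -3.80 percentage points (-4.61 to -2.99). Exons held 7.35% and 4.87%, a difference of -2.48 points (-3.35 to -1.61). Introns held 43.1% and 42.01%, where the interval of the difference included 0 (-2.87 to 0.643). Intergenic sites made up 42.5% and 49.9%, a difference of 7.39 points (5.63 to 9.15). With promoters of 2500 bp to either side the promoter difference was -8.05 points and the exon difference -0.438, and with any overlap of the site the intron difference was 0.771. Of the bases of these chromosomes, 0.908% are promoter, 3.63% exon, 36.4% intron and 59.0% intergenic.

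Shared sites lie at nearly the same places in both lists, so by definition their promoter shares had to be similar. They were 8.51% counted from wild type and 8.35% from the mutant. Wild-type-only sites reached 6.44% (5.68 to 7.29%) and mutant-only sites 2.16% (1.84 to 2.54%). The windows 5 kb downstream had promoter shares of 1.51% and 0.851%, so mutant-only sites still exceeded their windows, while their shares of exons (4.43% against 4.05%), introns (41.3% against 41.9%) and intergenic sequence (52.1% against 53.2%) were close to those of the windows. The median distance from the closest start site was 21.3 kb for shared wild-type sites, 28.1 kb for wild-type-only and 53.6 kb for mutant-only sites. More than 100 kb away were 16.5%, 24.5% and 37.2% of them. GC content moved with position, since promoter sites had a median of 55.9% in wild type and 52.6% in the mutant and intergenic sites 44.6% and 41.8%, and its part in the difference was not tested. At promoters the core was in 38.6% of shared wild-type, 40.7% of shared mutant, 16.1% of wild-type-only and 17.9% of mutant-only sites.

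**Figure D4:**
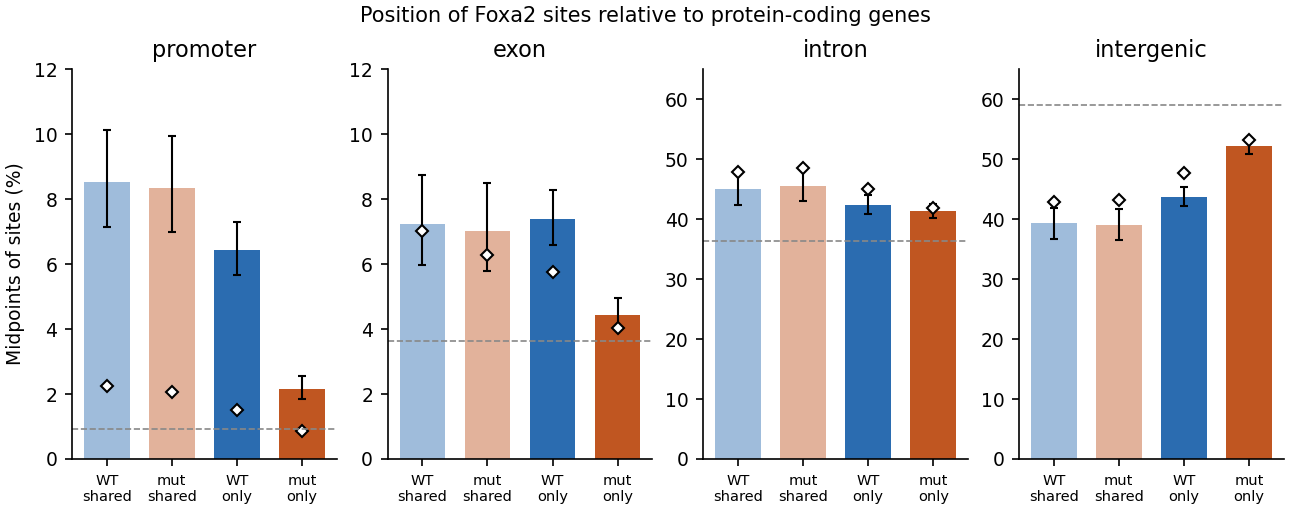
Share of site midpoints (%) in promoters, exons, introns and intergenic sequence for shared sites (pale) and sites called in 1 genotype only (full colour) of wild type (blue) and mutant (orange), with 95% Wilson intervals. Diamonds are windows 5 kb downstream and dashed lines the share of all bases, and the promoter share of mutant-only sites (2.16%) lies below that of wild-type-only sites (6.44%).

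The regions bound by lamin B1 and marked by H3K9me3 were called from livers of other, wild-type mice aged 3 and 21 months. Of wild-type Foxa2 midpoints 35.7% (34.4 to 37.1%) and of mutant midpoints 28.4% (27.5 to 29.4%) lay in lamin B1 domains of the younger livers, which cover 18.9% of these chromosomes. For mutant-only sites the share was 26.5% (25.5 to 27.6%), for wild-type-only sites 34.8% (33.3 to 36.4%). In the domains of the older livers, which cover 37.8%, the shares were 64.1% and 49.9% of wild-type and mutant sites. Windows 5 kb from the sites gave nearly the same shares (35.6% and 28.3% for the younger domains). A window this close mostly falls in the same domain, so the comparison says nothing of the sites themselves. H3K9me3 regions of younger livers held 19.5% (18.4 to 20.6%) of wild-type and 21.9% (21.0 to 22.8%) of mutant sites, and those of older livers 23.1% and 22.8%, with overlapping intervals. These regions cover 23.4% and 25.03% of the chromosomes, more than any of the 4 shares.

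Both deposited lists run in an order that is not that of position, and properties of the sites changed along it. In the first 10% of each list, 84.5% of wild-type and 76.9% of mutant sites were shared, and in the last 10%, 7.32% and 3.85%. The core was in the middle of 33.8% and 34.2% of sites in the first 10% and of 15.0% and 12.3% in the last, with windows between 5.30 and 8.35% throughout. No source states what the order is, so it is used only as a description. The promoter difference was present at both ends of the lists. Wild-type-only sites had 10.2% (8.02 to 12.9%) at promoters in the first 30% of the list and 5.13% (4.07 to 6.44%) in the last 30%, and mutant-only sites 2.70% (1.97 to 3.68%) and 2.17% (1.65 to 2.84%). The first rows included repeat-rich places, such as a shared site on chromosome 2 from 98666085 to 98667458 with 70.2% repeat and the chain on chromosome 9.

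**Figure D5:**
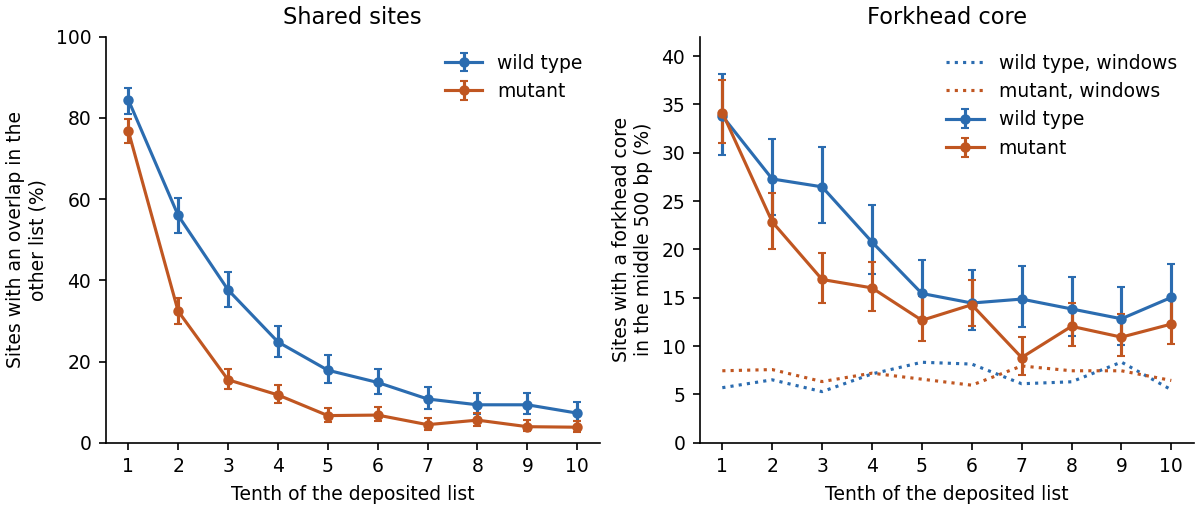
Left, share of sites (%) that overlap a site of the other list, and right, share with a forkhead core in the middle 500 bp (%), for 10 equal parts of each list in the deposited order, with 95% Wilson intervals; dotted lines are windows 5 kb downstream. Shared sites fall from 84.5% to 7.32% in wild type and from 76.9% to 3.85% in the mutant.

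Each site was assigned to the protein-coding gene with the closest start site, which names a neighbour and not a regulated gene. Of 20807 such genes, 3557 (17.1%) were closest to a wild-type site and 4957 (23.8%) to a mutant site. Sites in both lists were found for 2137 genes (10.3%), which is 60.1% of the wild-type and 43.1% of the mutant genes. A further 1420 genes (6.82%) had wild-type sites only and 2820 (13.6%) mutant sites only. This order depends on the length of the lists. With the mutant list shortened to the wild-type length in deposited order, 1802 genes had wild-type sites only and 1701 mutant sites only. The room around a gene differed between these classes. The stretch of chromosome closer to a gene's start site than to any other had a median of 33.6 kb for genes without a site, 70.0 kb for genes with wild-type sites only, 109 kb with mutant sites only, 103 kb for genes with an overlapping pair and 264 kb for genes with sites in both lists that did not overlap.

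The genes with most wild-type sites were not those with most mutant sites. Sult1c1, a sulfotransferase gene, had 12 wild-type sites within 148 kb and 1 mutant site. Disc1, which encodes a scaffold protein, had 11 within 116 kb and 1. The autophagy gene Atg7 had 8 wild-type sites, all in introns, within 53.9 kb and 3 mutant sites, 1 of them at the promoter. Disp1, required for release of Hedgehog ligands, had 8 and 3. None of the wild-type sites of these 4 genes overlapped a mutant site. None had the core in the middle, and 1 of them, at Disc1, had it elsewhere in the site. A large wild-type excess was also found for Hmgcs1, cytosolic HMG-CoA synthase of the cholesterol pathway, with 7 wild-type sites and 2 mutant sites, of which 1 pair overlapped. Adgrl2, an adhesion receptor, had 7 wild-type and 10 mutant sites.

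The 5 genes with most mutant sites had much room, with stretches from 954 kb (Sox5) to 3449 kb (Cdh8). Tenm3, a teneurin adhesion protein, had 16 mutant sites over 2337 kb and 6 wild-type sites, 4 of which overlapped. The adhesion receptor Adgrl3 had 11 mutant and 2 wild-type sites, the cadherin Cdh8 had 11 and 1, Pabpc4l had 11 and 2, and Sox5, an HMG-box factor, had 11 and 5. The 11 sites of Cdh8 were all intergenic and spread over 2774 kb, and those of Sox5 were all in introns. Pik3r1, the regulatory subunit of PI3-kinase that relays insulin signals, had 9 mutant sites over 683 kb, 4 of them with the core in the middle, against 1 wild-type site that overlapped a mutant one.

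Genes were also counted in lists by function. List members named for another reason than a different position or the most sites were chosen after their values were seen. Among hepatocyte transcription factors, 15 of 20 genes had a wild-type site, 16 of 20 a mutant site, 14 had both and 12 an overlapping pair. Over all genes the shares were 17.1%, 23.8%, 10.3% and 5.48%. The median stretch of these factors was 142 kb, against 33.6 kb for genes without a site. In the other lists it ran from 30.2 kb (plasma proteins) to 113 kb (nuclear receptors and cofactors). Its part in the counts was not tested for any list. Foxa2 itself had 5 wild-type and 4 mutant sites on chromosome 2, of which 3 were shared, including the one at the start of the gene, from 148046330 to 148047336 in wild type and 148046401 to 148047303 in the mutant, and the one with the core shown above, 6.52 kb beyond the start site in wild type. Wild-type-only sites lay 22.8 and 102.3 kb and a mutant-only site 229 kb from the start. Hnf4a, a master regulator of the hepatocyte programme, had 1 shared intronic site about 34.0 kb from its start. Cebpa had 4 wild-type and 2 mutant sites, both mutant sites being shared. A wild-type-only site of 1664 bp lay on the gene itself, 0.546 kb from the start. Prox1 had 2 wild-type and 6 mutant sites with 1 pair shared. Different positions were found for Hnf4g and Gata6. The wild-type site of Gata6 lay in its intron 0.378 kb from the start, and its 3 mutant sites lay upstream, the nearest at 30.6 kb.

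Nuclear receptors and their cofactors had sites for 12 of 24 genes in wild type and 13 of 24 in the mutant, with 10 in common, against 17.1%, 23.8% and 10.3% of all genes. Of the 10, 3 had different positions. Ppara, the receptor that drives fatty acid oxidation, had 3 wild-type sites and 1 mutant site. The mutant site lay in an intron 8.002 kb from the start, from 85742572 to 85743398 on chromosome 15, and the closest wild-type site began 3.44 kb further on, in an intron 12.6 kb from the start. Thrb, a thyroid hormone receptor, had a wild-type site 115 kb upstream, and the nearest of its 2 mutant sites was 190 kb from that one. For Ncor1 the wild-type site on chromosome 11 from 62487868 to 62488383 and the mutant site from 62494851 to 62495649 lay 6.47 kb apart and 29.6 and 36.7 kb upstream of the start, both in annotated introns. The most sites in the group were those of the coactivator Ppargc1a (2 wild-type, 8 mutant, 1 wild-type site shared) and the glucocorticoid receptor Nr3c1 (3 and 7, 2 shared). Nr0b2, which encodes the bile acid-induced repressor SHP, had a wild-type promoter site and no mutant site. Nr1h4, the bile acid receptor FXR, had 2 mutant sites near its start, at 0.161 and 2.55 kb, and no wild-type site.

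For lipid synthesis and storage, 18 of 40 genes had a site in each list and 13 in both, against 17.1%, 23.8% and 10.3% of all genes. Of these 13, 7 had an overlapping pair and 6 did not. Cd36, a fatty acid transporter, had 3 wild-type sites and 1 mutant site 4.54 kb from the nearest of them. Others were Mlxipl (6.43 kb between the closest pair), encoding ChREBP, which responds to glucose, the desaturase Fads1 (10.9 kb), lipoprotein lipase Lpl (29.8 kb) and the acyltransferase Gpam (256 kb). Lpl had a wild-type site 2.71 kb upstream of its start, and the mutant site was 28.1 kb downstream. Fasn, fatty acid synthase, had a promoter site in wild type alone, and Fabp1, which encodes the main hepatic fatty acid-binding protein, 3 wild-type sites and no mutant site. Insig2, which retains SREBP in the endoplasmic reticulum, had most mutant sites of the list (5, against 2 in wild type), 1 of them at the promoter.

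For fatty acid oxidation and ketogenesis, 14 of 30 genes had a wild-type and 10 of 30 a mutant site, against 17.1% and 23.8% of all genes. The difference is of 4 genes and was not tested. Wild-type sites alone were found for 5 genes, the dehydrogenase Acadm, Hadha of the trifunctional protein, Acot1, Crat and Vnn1, and a mutant site alone for Cyp4a10. Of 9 genes in both lists 3 had different positions. Pdk4, which restrains pyruvate oxidation, had a wild-type promoter site with the core, 0.343 kb upstream, and a mutant site 13.8 kb upstream. The thiolase Acaa2 was another, with 76.0 kb between the closest sites. Acsl1, which activates fatty acids, had the most sites, 3 in each list.

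Plasma protein genes were the list with the highest share of shared sites, with 17 of 29 genes in wild type, 21 of 29 in the mutant and 14 with an overlapping pair (17.1%, 23.8% and 5.48% of all genes). Of their sites, 71.4% of the 28 in wild type were shared, against 27.3% of all wild-type sites. Ahsg, the fetuin gene, had 4 sites in each list with 3 wild-type sites shared, Fgb 4 and 3, and Alb, albumin, 2 and 5. The apolipoprotein gene Apob was at different positions. Its wild-type site from 7977464 to 7977976 on chromosome 12 covered the promoter, and the closest mutant site, from 7978484 to 7979124, lay 0.507 kb further on in the gene, while 5 further mutant sites were spread up to 1045 kb upstream. For Fgg the closest pair was 45.7 kb apart. Mutant promoter sites without any wild-type site were found at F2 (prothrombin) and Rbp4, the retinol carrier.

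Genes of glucose and bile acid metabolism had sites for 16 of 25 in each list, 14 in common, 11 of them overlapping, against 17.1%, 23.8%, 10.3% and 5.48% of all genes. Irs2, an insulin receptor substrate, had 7 wild-type and 9 mutant sites, 5 wild-type sites being shared. Pck1, the gluconeogenic PEP carboxykinase, had 1 shared site at its start, 3938 bp wide in wild type and 879 bp in the mutant. Different positions were found for Tat (2.08 kb between the closest pair), the glycogen synthase Gys2 (11.4 kb) and the glucose transporter Slc2a2 (62.4 kb). Promoter sites in the mutant alone lay at Cyp27a1 and Acox2, both of bile acid synthesis, each of which also had a shared site further away.

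Of genes of the nuclear lamina, 3 of 17 had a wild-type and 4 of 17 a mutant site, about the shares of all genes (17.1% and 23.8%). Nup210 of the nuclear pore had a wild-type and a mutant site 7.84 kb apart within its introns. In the p53 and stress list 6 of 19 genes had a wild-type and 10 of 19 a mutant site, against 17.1% and 23.8% of all genes. The difference is of few genes, the mutant list is longer, and it was not tested. Cdkn2b (32.1 kb) and Ccng1 (264 kb) had different positions. Gadd45g had the most wild-type sites (4). Of markers of other liver cells, 3 of 20 genes had a wild-type and 5 of 20 a mutant site, against 17.1% and 23.8% of all genes. For the defining markers of single cell types, 5 of 7 hepatocyte genes (Alb, Ttr, Apob, Fgb and Hnf4a) had sites in both lists, and none of the 4 Kupffer cell genes looked at had a site in either. Of endothelial genes 1 of 5 had a site in each list, Stab2 in wild type and Kdr in the mutant. Of 4 stellate cell genes Reln had sites in both lists and Pdgfrb in the mutant, and of 4 cholangiocyte genes Sox9 in both. Sites are not a measure of expression, so the tissue label cannot be checked further.

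Genes with sites in both lists but no overlap numbered 996 (4.79% of all genes and 46.6% of the 2137 with sites in both). When only sites within 50 kb of a start were assigned, 1229 genes had sites in both lists and 399 of them had no overlap. The closest wild-type and mutant sites of such a gene were 34.1 kb apart in the median, with the middle 50% between 9.77 and 92.9 kb. In 147 genes they came within 5 kb and in 230 they were more than 100 kb apart. The wild-type site was the closer one to the start site in 488 and the mutant site in 508 genes. In 600 genes the sites closest to the start had the same position class and in 396 another, and in 349 they lay on opposite sides of the start. The most common changes were from a wild-type intergenic to a mutant intronic site (135 genes) and the reverse (107). From a wild-type promoter site, 33 genes had an intergenic and 19 an intronic mutant site, against 12 and 13 genes with the opposite change.

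Among all genes with sites in both lists, 97 had a promoter site in wild type and only other positions in the mutant, 54 the reverse, and 97 a promoter site in both. The wild-type list had more promoter sites to begin with, 344 against 258. Neither these counts nor the changes from and to promoters above were adjusted for it. Those with the most sites in the first direction were Btg1, an anti-proliferative gene (7 wild-type and 8 mutant sites), Mkln1 (6 and 7), Klf9, a glucocorticoid-induced zinc finger factor (6 and 6), Gm9008 (1 and 8) and Apob. At Klf9 the wild-type promoter site, from 23140863 to 23141280 on chromosome 19, held the core, and 3 other sites upstream were shared. In the second direction they were Arrdc4 (4 and 10), Atg7, Insig2, the Wnt effector Tcf7l2 (2 and 5) and Zfp395 (3 and 3). The mutant Atg7 site, from 114642722 to 114643612 on chromosome 6, covered the start of the gene, while the midpoint of the nearest wild-type site lay 6.165 kb from it.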

How the data were processed

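Foxa2 ChIP-Seq was performed on liver chromatin of 3 samples per genotype. The deposited lists hold positions only (chromosome, start and end on mm10), 1 list per genotype, and the authors merged the reads of the 3 replicates before calling. Per the study's methods, mutant reads were reduced to the wild-type number, input came from young and old wild-type livers, and PeakSeq called the Foxa2 sites, whereas the submitters' processing notes name BWA and SICER for all samples. The lists carry no counts, scores or depth.

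Positions were compared with the GENCODE vM21 annotation and GRCm38.p6 sequence with pandas 2.3.3, numpy 2.4.6 and scipy 1.17.1 under Python 3.11.15, and plotted with matplotlib 3.10.9. Sites on chromosomes 1 to 19 were used, and 1 shared bp counted as overlap. Promoters ran from 1000 bp before to 100 bp after the start site of a protein-coding gene. Chains joined sites up to 10 kb apart, windows of equal width lay 5 kb downstream, and genes were assigned by the closest start site within 10000 kb. Repeats are the lower-case bases of the assembly. With 1 list per genotype no test was made, and shares have 95% Wilson intervals. The scripts were tested on simulated data with known answers, and 0 of 16 checks failed.

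By rule, the genes named were the members of the gene lists at different positions or with most sites, the genes of the 3 longest chains and the 3 widest and narrowest sites, the 5 genes with most sites or the largest excess in each list, and the 5 with most sites among those with a promoter site in 1 genotype only. Other list members named, and the sites whose sequence is printed, were chosen after their values were seen. The sites, gene lists and rules were chosen with earlier results of these data known. Alternatives changed the overlap, chain gap, promoter, annotation, gene distance, forkhead core and part of the lists. Some genes of the lists are counted but not reported here by name.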

Additional observations from a re-analysis of the deposited data

Results flagged for a closer look

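The X chromosome was left out of all comparisons above and held 122 mutant sites against 38 wild-type sites, a ratio of 3.21 where chromosomes 1 to 19 had 1.64. It is listed because it is signal in data outside the main comparison, above the level in the wild-type list. Chromosome Y had 4 mutant and 6 wild-type sites. With 1 list per genotype the difference was not tested.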

How the results depend on the processing

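No paired analysis was possible because the replicates of each genotype were merged into 1 list before deposit, and for the same reason no replicate could be left out. A stricter threshold could not be applied, since the lists carry no scores. Of 95 values recomputed for 24 results, 65 stayed within the tolerance set for them (a factor of 1.5 for counts, the interval for shares and differences), 30 moved beyond it and 0 reversed the direction of a called difference. The first part of each list in deposited order (the first 50%), a mutant list shortened to the wild-type length and the removal of sites with over 50% repeat were chosen after seeing the data. Clustered sites made up 9.85% in wild type and 7.43% in the mutant with gaps up to 5 kb, 26.8% and 24.7% up to 25 kb, 13.7% and 12.3% after sites under 500 bp apart were merged, and 11.6% and 10.01% in the first part of each list, with 10.4% in the shortened mutant list. This share depends on the number of sites, so its values in part of a list cannot be set against those of the whole list. Mutant density was 3.27 sites per Mb, and 3.36 without undetermined bases. The promoter difference was -8.05 percentage points with promoters of 2500 bp to either side, -6.21 with any overlap of the site and -6.03 with the starts of all transcripts. The exon difference was -0.438 and -1.19 points under the first and last of these, the intron difference 0.771 with any overlap, and the intergenic difference 5.60 in the shortened list. Within 50 kb of a start, 1229 genes had sites in both lists and 399 of these at different positions. With all annotated genes, 2318 had wild-type and 4750 mutant sites only, and with the shortened list the numbers were 1802 and 1701, which turns their order. Within the tolerance, shared wild-type sites fell to 906 with a reciprocal overlap of at least 50%. Genes with sites in both lists fell to 1507, also within it, when sites were assigned to gene bodies with 5 kb on either side. Shared wild-type sites numbered 950 in the first part of the lists. That part holds only 50% of the sites, so this count does not show less agreement between the lists, although it lay within the tolerance. Counted over whole sites, the excess of the forkhead core over windows was 8.48 points in wild-type-only, 6.24 in mutant-only, 32.9 in shared wild-type and 32.7 in shared mutant sites. When TATTTAC was added it was 10.3, 8.84, 40.6 and 43.2 points. It was 12.6 and 7.84 points for the genotype-only classes in the first part of the lists, and 28.1 and 29.0 for the shared classes in 500 bp around the midpoint. The cause of these changes was not tested beyond what each setting alters.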
